A study of Drosophila melanogaster with 8 samples.

Results

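The cytoplasmic ribosomal protein genes of Drosophila melanogaster were taken as all reference genes whose symbol starts with RpL, RpS or RpLP and a number, which gave 92 of 17137 genes. The rule leaves out the mitochondrial ribosomal proteins, whose symbols start with mRp. Of the 92 genes, 51 carry large-subunit names, 38 carry small-subunit names and 3 (RpLP0, RpLP1 and RpLP2) encode the stalk. The RNA came from adult males and females of the w1118 strain, aged 2 to 7 days, whose central brain cells were sorted into fru+ and fru- pools, with 2 libraries for each of the 4 groups. All flies carried UAS-mCD8-GFP, MB247-Gal80 and Fru-GAL4, so fru+ cells were the GFP-positive cells and fru- cells the GFP-negative cells of the same brains. MB247-Gal80 blocks GFP in mushroom body Kenyon cells, so those cells, including the ones that transcribe fru, were left in the fru- pool. Each library came from pooled brains without optic lobes, and both sexes of a given replicate number shared 1 sort session.

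Each ribosome joins a small subunit, which reads the mRNA, with a large subunit, which forms the peptide bond. Each subunit carries a single copy of most of its proteins, and in Drosophila the loss of 1 gene copy for many of them gives slow growth and short bristles, the Minute phenotype. Their mRNAs are short and abundant, and many of the genes carry small nucleolar RNAs in their introns. These RNAs guide modification of the ribosomal RNA.

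Levels are given in TPM, which StringTie scales for gene length and library size. The reference genes used here summed to 956415 to 985750 TPM per library. Loci assembled by StringTie, which were left out, summed to a further 1e+06 TPM in each. Differences are given as log2 fold changes of TPM + 1 fitted with limma over 10111 tested genes. The libraries held 3.14 to 4.89 Gb of aligned sequence, and the 80 genes with a mean of at least 100 TPM had a mean read depth of 110 or more per base in every library. No read counts were used, so no counting interval is given. Transcripts of fru stood at 56.2 to 71.6 TPM in the 4 fru+ libraries and at 3.75 to 15.1 TPM in the 4 fru- libraries. Summed over 6 neuronal markers, the level was 2643 to 3971 TPM in fru+ and 2337 to 4030 TPM in fru- libraries. Summed over 8 glial markers, it was 501 to 818 TPM in fru+ and 937 to 2375 TPM in fru- libraries, although the labels name the tissue as neurons. With 2 libraries per group and pooled brains, the p-values measure the spread between these samples only.

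Ribosomal protein mRNAs were among the most abundant in all 8 libraries. The 80 genes with a mean of at least 100 TPM had a median of 603 TPM, against 23.3 TPM for all tested genes, and 62 members were among the 500 highest genes. These 80 genes spanned 12.9-fold, from RpL30 at 152 TPM to RpL40 at 1950 TPM, and the middle of the distribution was narrow, with quartiles of 394 and 796 TPM. The large-subunit genes among them had a median of 610 TPM and the small-subunit genes 584 TPM. Of the other 12 members, 7 had a mean under 2 TPM, and RpL10Aa, RpL22-like and RpS28-like were listed at 0 in every library. The tests covered 88 members, since RpS19b, with at most 0.474 TPM, and the 3 genes listed at 0 were below the limit of 1 TPM in 2 libraries.

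**Figure D1:**
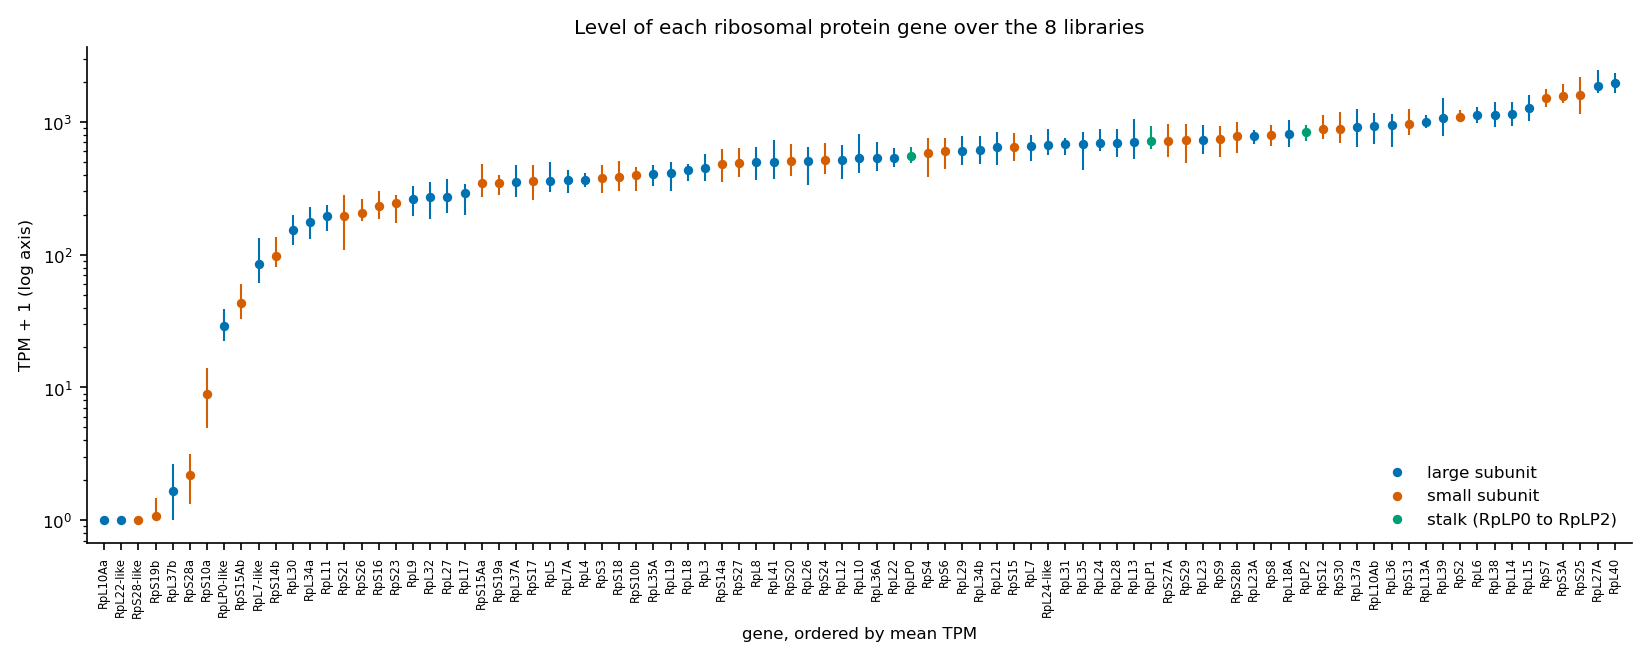
Level of 89 ribosomal protein genes, ordered by mean TPM (points, TPM + 1 on a log axis), with lines from the lowest to the highest of the 8 libraries and colours for the subunit. Most genes lie between 152 and 1950 TPM, and the genes at the left fall away to means under 100 TPM.

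The 6 highest genes were RpL40, RpL27A, RpS25, RpS3A, RpS7 and RpL15. RpL40, which is made as a fusion to ubiquitin, was at 1976 and 1963 TPM in male fru+, 1882 and 2342 in female fru+, 1737 and 1690 in male fru- and 2346 and 1661 in female fru- cells. RpS27A, the other ubiquitin fusion, was lower, at a mean of 722 TPM and a range of 547 to 963 TPM. RpS3A, the only member on chromosome 4, had a mean of 1568 TPM. Among the genes of the stalk, which recruits the elongation factors, RpLP0 had a mean of 554 TPM, RpLP1 of 713 TPM and RpLP2 of 843 TPM. RpL3, a core protein near the peptidyl transferase centre, had a mean of 452 TPM, and RpL10, which joins the large subunit late in assembly, of 532 TPM. RpS6, the target of S6 kinase, had a mean of 599 TPM, and RpS3, at the mRNA entry channel, of 379 TPM. Apart from the 3 genes listed at 0, the lowest means were those of RpS19b at 0.0753 TPM and RpL37b at 0.652 TPM.

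The members lie on every major chromosome arm, with 19 on 2L, 21 on 2R, 14 on 3L, 23 on 3R and 14 on the X. Their median transcript length was 805 nt, against 1821 nt for all tested genes, and 61 of the 92 were under 1000 nt. Within 28 members lie 74 of the 269 annotated small nucleolar RNA genes, 7 of them in RpS7. Exons of 30 members overlap those of another gene, and because strand was not used, reads of such pairs cannot be told apart.

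The members moved together from library to library, and the largest differences were between the replicates of the female groups. Their summed level was 53183 and 55444 TPM in male fru+ cells (54313 ± 1599, SD, n = 2), 50647 and 62072 TPM in female fru+ cells (56360 ± 8079, n = 2), 49316 and 48488 TPM in male fru- cells (48902 ± 586, n = 2) and 63288 and 44040 TPM in female fru- cells (53664 ± 13610, n = 2). Female fru+ replicate 2 and female fru- replicate 1 were thus the highest and female fru- replicate 2 the lowest, and these sums made up 4.51% to 6.49% of the TPM of all reference genes. Of the 88 tested members, 36 were highest in female fru+ replicate 2, 36 in female fru- replicate 1, and 63 were lowest in female fru- replicate 2. The ratio of the sum over all RpL and RpLP genes to that over all RpS genes, stalk and -like genes included, stayed between 1.56 and 1.65.

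The glial marker sum was 501 TPM in female fru+ replicate 2 and 2375 TPM in female fru- replicate 1, the lowest and the highest of the 8, and the ribosomal protein sum was high in both. The neuronal marker sum was 2643 and 2337 TPM in these libraries and 2798 TPM in female fru- replicate 2, against 3497 to 4030 TPM in the other 5. The part of cell composition in the library differences was not tested. In bulk libraries such as these, more cells with high levels and more mRNA per cell cannot be told apart. Among 2280 other tested genes with transcripts under 1000 nt, the median deviation from the gene's mean was 0.062 in female fru+ replicate 2, 0.015 in female fru- replicate 1 and -0.0062 in female fru- replicate 2. The members' medians were 0.28, 0.25 and -0.31 on the same log2 scale.

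**Figure D2:**
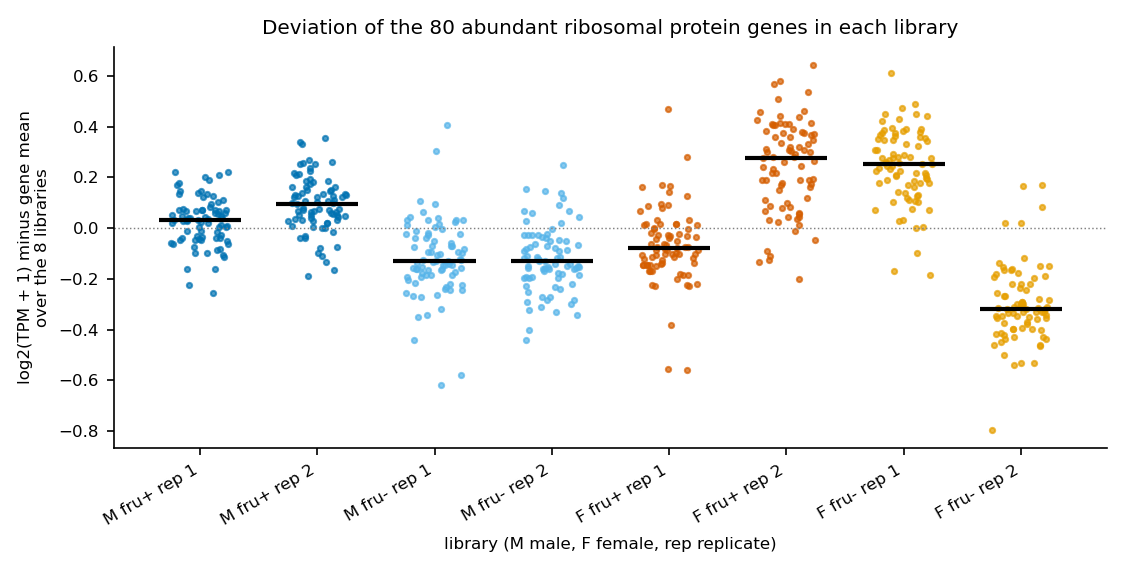
Deviation of log2(TPM + 1) from the gene's mean over the 8 libraries, for the 80 ribosomal protein genes with a mean of at least 100 TPM, with 1 point per gene and black bars for the median. Most genes lie above 0 in female fru+ replicate 2 and female fru- replicate 1 and below 0 in female fru- replicate 2, and the male groups show smaller gaps between replicates.

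The shared pattern did not extend to every gene. As a description over 8 libraries that share their scaling, each of the 80 abundant genes was correlated with the mean of the rest, and the median Pearson's r was 0.88, with 54 genes over 0.8. RpL7, at 0.99, followed the mean most closely. For 10 genes r was under 0.5, and among these RpL23A (-0.25) and RpL22 (-0.14) had negative values. RpS2 and RpL23A varied least, with SDs of 0.11 on the log2 scale in both. Among the abundant genes RpS21 (0.45) and RpS29 (0.35) varied most, and among all tested members RpS10a (0.65). RpL32, or rp49, a common reference gene for quantitative PCR in flies, was picked out after its values were seen. It ranged from 183 TPM in female fru- replicate 2 to 354 TPM in female fru+ replicate 2.

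Comparing fru+ with fru- cells over both sexes asks whether these genes differ between the GFP-positive and the GFP-negative pools. It does not single out transcription of fru, since the fru- pool holds Kenyon cells that transcribe it. None of the 88 members passed an adjusted p of 0.05 with limma, where 5.29% of all tested genes did, and none did with the sort session as a block. By sign, 73 of 88 members were higher in fru+ cells, with a median log2 fold change of 0.14 and quartiles of 0.040 and 0.24, while the median of all tested genes was -0.12. At an unadjusted p under 0.05 stood 7 members, all higher in fru+ cells, or 7.95% of the members against 23.5% of all genes in either direction and 6.05% in the higher direction. The median standard error of a member was 0.15, about the size of the median difference itself.

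The sign count moved with single libraries. Without female fru- replicate 2 the count fell to 47 of 88 and the median to 0.016, and without female fru+ replicate 2 they were 59 of 88 and 0.051. Other scalings did not lower the count. With median-of-ratios scaling the median of all genes was -0.0020, that of the members was 0.28, and 81 of 88 members were higher, and with rescaling to the genes outside the ribosomal proteins 76 of 88 were. Within session 1 the summed TPM was lower in fru+ than in fru- cells, with a ratio of 0.922, and within session 2 it was higher, with a ratio of 1.27. The male pairs gave 1.08 and 1.14 in the 2 sessions, and the female pairs 0.80 and 1.41. Markers of other cells moved with this comparison. All 8 glial and all 7 Kenyon cell markers were lower in fru+ cells, and 2 glial (alrm and nrv2) and 3 Kenyon cell markers (ey, prt and toy) passed the test. With median-of-ratios scaling 1 of the 7 Kenyon cell markers was higher. The same count held without male fru+ replicate 1, female fru+ replicate 2 or male fru- replicate 2. The calls of nrv2, ey and prt held without any 1 library, while those of alrm and toy were each lost in 6 of the 8 such fits (adjusted p up to 0.120 and 0.114), and that of toy with median-of-ratios scaling (0.0577). Of 6 markers of neuroblasts and cycling cells, which summed to 6.46 to 13.6 TPM in fru+ and 2.09 to 5.01 TPM in fru- libraries, 2 were tested. PCNA, the DNA polymerase clamp, was higher in fru+ cells by 1.43 on the log2 scale (limma adjusted p = 0.0225), a call lost in 5 of the 8 fits without 1 library, and wor was at 0 throughout. The other tested marker of that list, mira, did not pass, and the median of the 2 was 0.73. Both were higher by sign. Only 1 of them was when male fru+ replicate 1, female fru+ replicate 1 or male fru- replicate 2 was left out. The part of the markers of other cells in the members' levels was not tested.

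**Figure D3:**
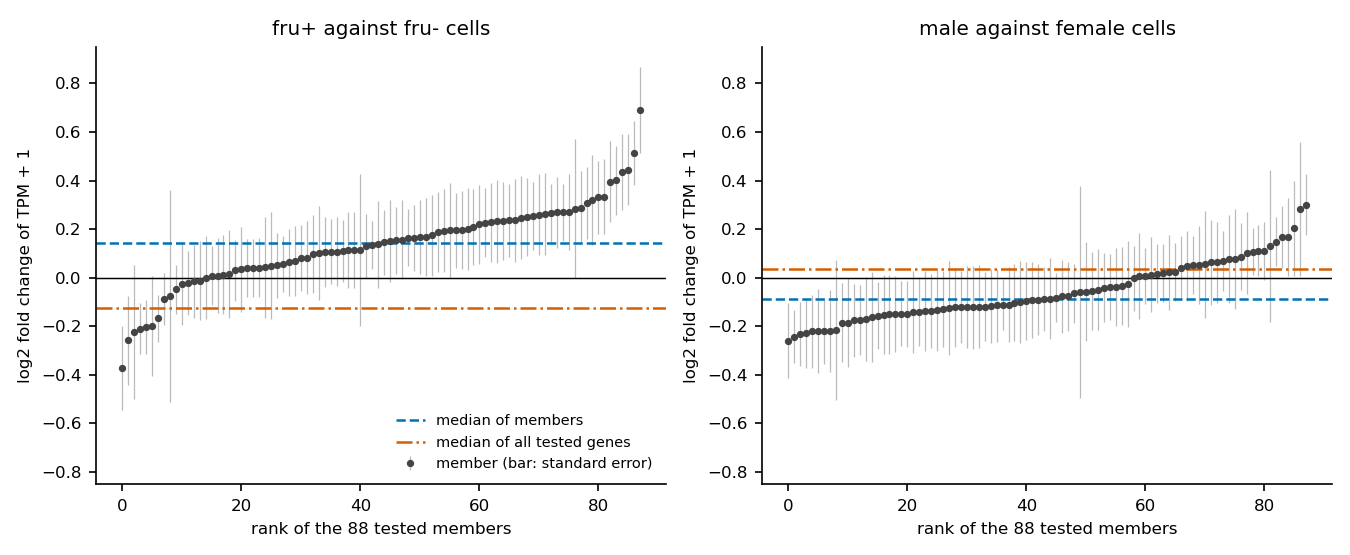
Log2 fold changes of TPM + 1 (points) with standard errors (bars) for the 88 tested members in rank order, for fru+ against fru- cells (left) and male against female cells (right), with the medians of the members and of all tested genes as lines. On the left the members' median of 0.14 lies above that of all genes at -0.12, and on the right it lies below, at -0.088 against 0.036.

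RpS21, a protein of the small subunit, was the member with the largest difference between fru+ and fru- cells. It was at 214 and 238 TPM in male fru+ and 229 and 279 TPM in female fru+ cells, against 138 and 170 TPM in male fru- and 188 and 108 TPM in female fru- cells. All 4 fru+ libraries lay above all 4 fru- libraries. The log2 fold change was 0.69 (standard error 0.18, limma adjusted p = 0.0535), and the adjusted p ranged from 0.0104 to 0.161 over the alternatives. RpL41, the smallest ribosomal protein, was at 500 and 584 TPM in male fru+ and 547 and 731 TPM in female fru+ cells, against 383 and 371 TPM in male fru- and 499.97 and 395 TPM in female fru- cells. Male fru+ replicate 1, at 499.76 TPM, fell just under female fru- replicate 1, so the groups overlapped. Its log2 fold change was 0.51 (standard error 0.13, limma adjusted p = 0.0558), with a range of 0.0364 to 0.188 over the alternatives.

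RpS15Aa, of the small-subunit body, was at 396 and 407 TPM in male fru+, 316 and 483 TPM in female fru+, 272 and 324 TPM in male fru- and 299 and 272 TPM in female fru- cells. Its groups overlapped through female fru+ replicate 1, and the log2 fold change was 0.45 (standard error 0.14, limma adjusted p = 0.106; 0.0315 to 0.264 over the alternatives). The calls turned on single libraries. Without female fru- replicate 1, 3 members passed, among them RpS21 (adjusted p = 0.0104) and RpL41 (0.0447), beside 3.61% of all tested genes. Without female fru+ replicate 1, 2 members passed, RpL41 (0.0364) and RpS15Aa (0.0315), beside 5.02% of all genes. With median-of-ratios scaling RpS21 (0.0367) and RpL41 (0.0397) passed, beside 4.75% of all genes.

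The other members with an unadjusted p under 0.05 were RpL12, at the base of the stalk, RpL39, in the wall of the exit tunnel, and RpL35 and RpL7A of the large subunit. Their log2 fold changes were 0.40, 0.44, 0.40 and 0.27. Exons of RpL12 and RpL39 overlap each other, so these are not separate observations. RpL7A was at 367 and 433 TPM in male fru+, 392 and 388 TPM in female fru+, 320 and 337 TPM in male fru- and 366 and 289 TPM in female fru- cells. Together with RpS21 it was 1 of 2 members with all fru+ libraries above all fru- libraries, a pattern shown by 3.97% of all tested genes.

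Of the 15 members with lower estimates in fru+ cells, RpL7-like (-0.37) and RpS15Ab (-0.26) had the largest differences, and RpL22 (-0.21), RpL27A (-0.20) and RpL13 (-0.20) had smaller ones. None of the 15 passed the test. RpL23A, a large-subunit protein at the exit tunnel, was at 763 and 781 TPM in male fru+ and 684 and 714 TPM in female fru+ cells, against 832 and 861 TPM in male fru- and 819 and 791 TPM in female fru- cells. It was the only member with all fru+ libraries below all fru- libraries, which held for 11.6% of all tested genes, and its log2 fold change was -0.17 (standard error 0.096, limma adjusted p = 0.326). Its exons overlap those of CG7974 and Uhg7.

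**Figure D4:**
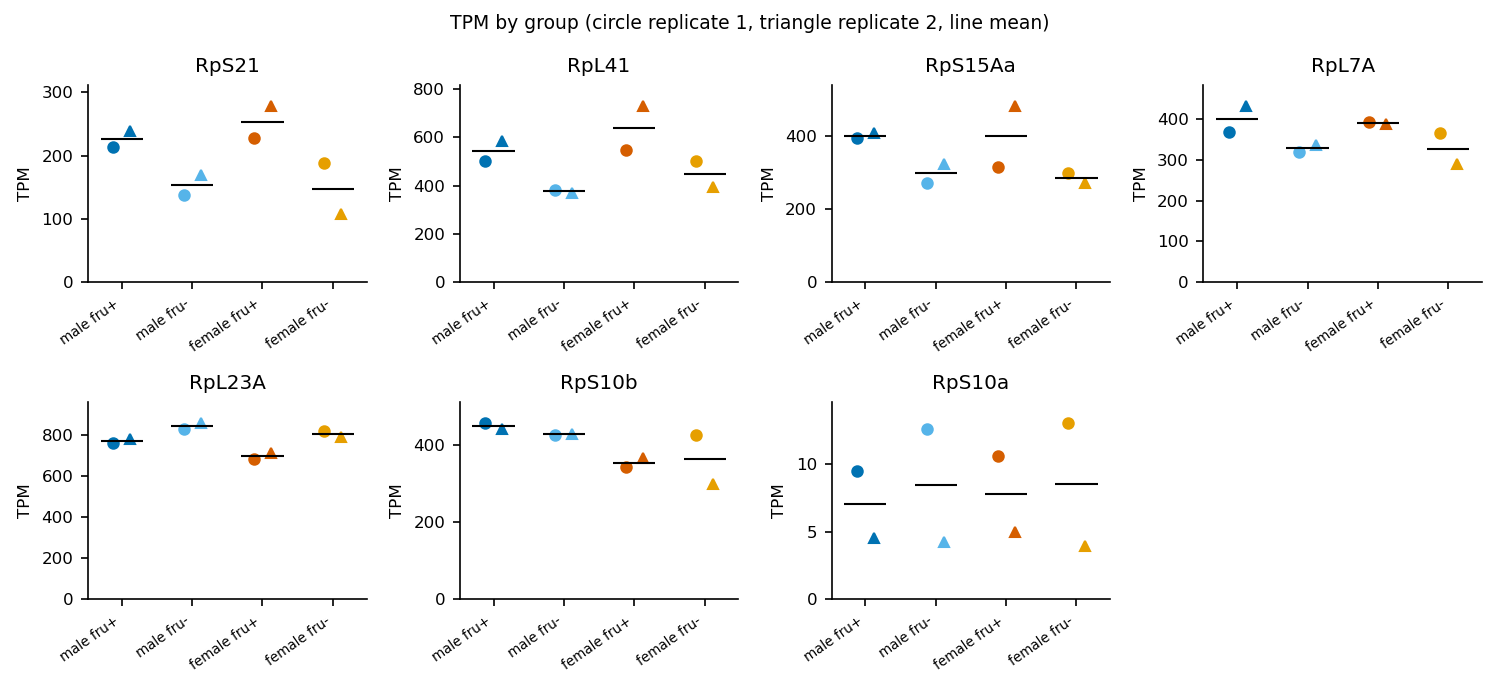
TPM of 7 ribosomal protein genes in the 4 groups (circles for replicate 1, triangles for replicate 2, lines for the group mean, axes from 0). RpS21 and RpL7A are higher in every fru+ library than in any fru- library and RpL23A is lower, RpS10b is higher in every male library, and RpS10a separates by replicate, at 9.46 to 13.0 TPM in replicate 1 and 3.96 to 4.99 TPM in replicate 2.

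Within males, 74 of 88 members were higher in fru+ cells and the median log2 fold change was 0.17, against -0.14 for all tested genes. None passed the test, where 0.514% of all genes did, and 2 members had an unadjusted p under 0.05, as did 13.4% of all genes. RpL41 differed by 0.52 (standard error 0.19, limma adjusted p = 0.280), RpL35 by 0.60 (0.24, adjusted p = 0.310) and RpS21 by 0.56 (0.25, adjusted p = 0.374). RpL35 was at 779 and 840 TPM in male fru+ and 434 and 651 TPM in male fru- cells. Leaving out any 1 of the libraries kept the median of the male comparison between 0.15 and 0.20.

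Within females, 62 of 88 members were higher in fru+ cells, with a median of 0.12 against -0.11 for all genes. None passed the test, where 0.653% of all genes did, and 5 had an unadjusted p under 0.05, against 14.7% of all genes. RpS21 differed by 0.82 (standard error 0.25, limma adjusted p = 0.183) and RpL41 by 0.51 (0.19, adjusted p = 0.262). RpL27A, a large-subunit protein, differed by -0.35 (0.16, adjusted p = 0.334), and RpL37b, also among the 5, was at or under 1.65 TPM in every library. The female median changed sign without either of 2 libraries. It was -0.16 without female fru- replicate 2, where 19 of 88 members were higher, and -0.069 without female fru+ replicate 2, where 31 of 88 were. Without female fru- replicate 1 it was 0.40. With median-of-ratios scaling 79 of 88 were higher.

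Between males and females over both fru states, no member passed the test with limma, where 0.227% of all tested genes did, and 1 member had an unadjusted p under 0.05, as did 6.71% of all genes. By sign, 29 of 88 members were higher in males, with a median log2 fold change of -0.088 against 0.036 for all genes. Without female fru- replicate 1 the count became 65 of 88 and the median 0.067, and without female fru+ replicate 2 they were 47 of 88 and 0.011. Without female fru- replicate 2 they were 11 of 88 and -0.24. RpS10b, an X-linked gene of the small subunit, had the smallest p. It was at 457 and 442 TPM in male fru+ and 425 and 428 TPM in male fru- cells, against 343 and 365 TPM in female fru+ and 424.9 and 299.5 TPM in female fru- cells. All 4 male libraries lay above all 4 female libraries, by under 1 TPM at the closest pair, as in 2.1% of all tested genes. The log2 fold change was 0.30 (standard error 0.13, limma adjusted p = 0.728), and its exons overlap those of CG14220. RpL27A (-0.24, adjusted p = 0.749) and RpL41 (-0.23, adjusted p = 0.827) followed. No member was lower in every male library than in any female library, where 1.14% of all genes were.

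Male flies carry a single X, from which transcription is raised by dosage compensation. The 14 X-linked members had a median difference of males from females of 0.050 on the log2 scale, with 9 of 14 higher in males, and the 74 autosomal members had a median of -0.11, with 20 of 74 higher. For the other tested genes the medians were 0.067 for X-linked and 0.033 for autosomal genes. Within fru+ cells these medians of the other genes were 0.013 and 0.030, and within fru- cells 0.086 and 0.032. For the members they were 0.083 and -0.075 within fru+ cells and 0.032 and -0.12 within fru- cells.

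In fru+ cells alone, 33 of 88 members were higher in males, with a median of -0.065 against 0.028 for all genes. None passed, where 0.089% of all genes did, and 2, RpL31 among them, had an unadjusted p under 0.05, against 4.24% of all genes. RpL31, a large-subunit protein at the exit tunnel, was at 565 and 592 TPM in male fru+ against 756 and 723 TPM in female fru+ cells, or -0.35 on the log2 scale (standard error 0.15, limma adjusted p = 1). In fru- cells it was at 705 and 751 TPM in males and 725 and 609 TPM in females. The median in fru+ cells was -0.24 without female fru+ replicate 1 and 0.12 without female fru+ replicate 2.

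In fru- cells alone, 25 of 88 members were higher in males, with a median of -0.099 against 0.038 for all genes, and 16 of 88 with median-of-ratios scaling. None passed, where 0.109% of all genes did, and only RpL27A had an unadjusted p under 0.05, against 4.99% of all genes. RpL27A was at 1671 and 1778 TPM in male fru- against 2478 and 2064 TPM in female fru- cells, or -0.39 on the log2 scale (standard error 0.16, limma adjusted p = 0.922), and was at 1644 to 1887 TPM in the fru+ libraries. RpS4 (-0.39) and RpS2 (-0.21) had the next smallest p. The median was 0.17 without female fru- replicate 1 and -0.41 without female fru- replicate 2.

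The interaction of sex and fru status was not past the threshold for any member or for any tested gene (0%) with limma, and 3 members had an unadjusted p under 0.05, as did 2.34% of all genes. Among them were RpL37b and RpL31, both with an adjusted p of 0.999, and RpL31 had an interaction of -0.48 (standard error 0.21).

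RpS10a, a copy of RpS10b picked out after its values were seen, was higher in session 1 than in session 2 in every group, without passing the test. It was at 9.46, 10.6, 12.6 and 13.0 TPM in the replicate 1 libraries of male fru+, female fru+, male fru- and female fru- cells. In replicate 2 it was at 4.54, 4.99, 4.24 and 3.96 TPM. All values of session 1 lay above all values of session 2, and how many of all tested genes separate in this way was not counted. The difference of session 2 from session 1 was -1.19 (standard error 0.20, limma adjusted p = 0.156). Of all tested genes, 2 (0.0198%) passed for session and no member did, and 3 members (3.41%) had an unadjusted p under 0.05, against 11.2% of all genes, with RpS25 (-0.44) and RpS13 (0.31) beside RpS10a. RpS25, a small-subunit protein, was at 1399, 2168, 2074 and 1758 TPM in replicate 1 and at 1395, 1630, 1243 and 1146 TPM in replicate 2 of the same 4 groups.

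Several ribosomal proteins have more than 1 gene. In 13 families of shared name, whose 27 members include 5 -like genes that need not be copies, mostly 1 gene carried the mRNA. RpL10Ab and RpL22 made up 100% of their families, and RpS19a, RpS28b and RpL37a at least 99.68% in every library. Their partners include RpL22-like, known from the testis. The 8 germ-line markers together summed to between 4.49 and 12.2 TPM. RpS28a was at 0.323 to 2.14 TPM. RpL37b was at 0.277 and 0.277 TPM in male fru+, 1.15 and 1.65 TPM in female fru+, 0.596 and 0.782 TPM in male fru- and 0.483 and 0 TPM in female fru- cells. At these levels a fold change depends strongly on the pseudocount.

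Other families were shared. RpL34a made up 18.7% to 22.9% of the RpL34 mRNA beside RpL34b in the replicate 1 libraries and 23.0% to 26.8% in replicate 2. RpS14b, beside RpS14a, its neighbour on the X, made up 13.8% to 16.5% of the RpS14 mRNA in replicate 1. In replicate 2 it made up 17.1% to 19.1%. Both shares thus separated by session, which was not tested. RpS15Ab made up 8.14% and 7.20% of its family in male fru+ and 10.9% and 8.98% in female fru+ cells, against 13.7% and 12.8% in male fru- and 16.5% and 11.5% in female fru- cells. The fru+ shares were all below the fru- shares, with RpS15Ab itself at 31.6 to 47.7 TPM in fru+ and 35.2 to 59.0 TPM in fru- cells. How often shares of other gene pairs separate was not counted. Only uniquely mapped reads were kept, so levels of near-identical copies are uncertain and the split between them was not tested.

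**Figure D5:**
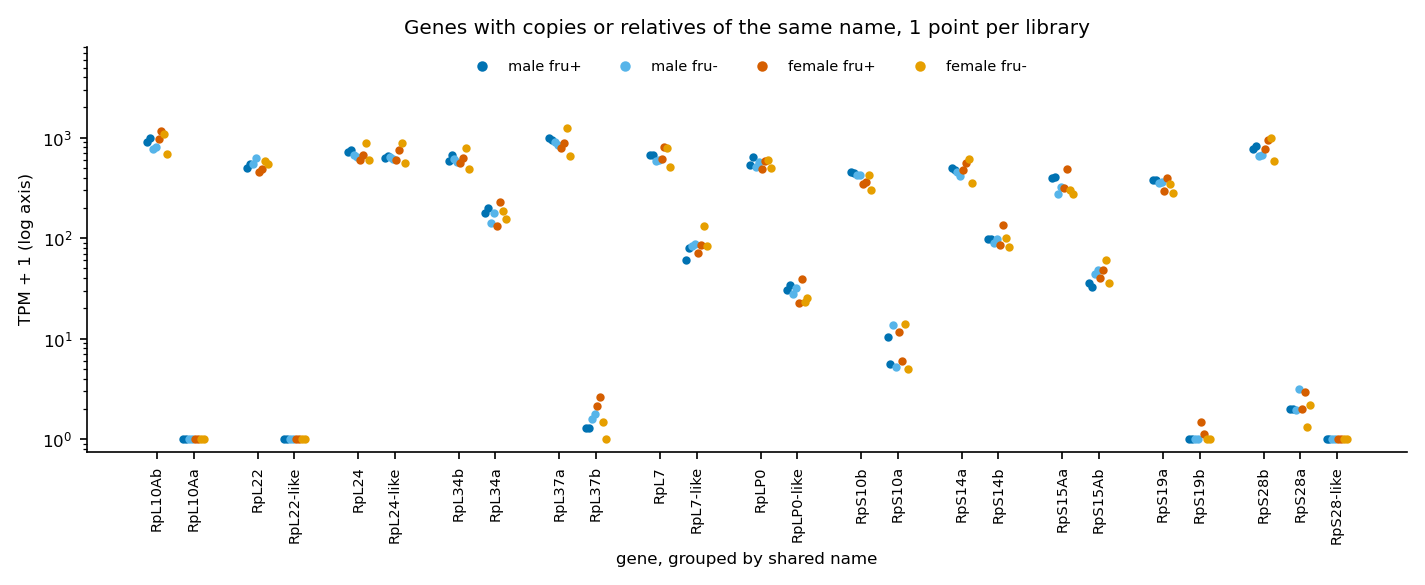
TPM + 1 (log axis) of the members of 12 families of shared name, with 1 point for each of the 8 libraries and colours for the group. In families such as RpL10A, RpL22 and RpS19 only 1 copy is abundant, while RpL24 and RpL24-like lie at the same level.

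The genes named -like are a group of their own. In yeast the relatives of RpL24-like, RpL7-like and RpLP0-like act in assembly of the large subunit and are absent from the finished ribosome. RpL24-like was as abundant as RpL24, at 46.3% to 53.0% of their sum and a mean of 665 TPM, though its exons overlap those of Dtd. RpL7-like was at 60.0 and 78.9 TPM in male fru+, 69.8 and 83.8 TPM in female fru+, 83.5 and 86.5 TPM in male fru- and 131 and 82.5 TPM in female fru- cells. Its share beside RpL7 was 8.26% to 10.5% in fru+ and 12.5% to 14.4% in fru- cells, without overlap. The share was not tested, and how often shares of other gene pairs separate was not counted. The log2 fold change of the level of RpL7-like was -0.37 (standard error 0.17, limma adjusted p = 0.228). RpLP0-like was at 21.6 to 37.9 TPM, or 3.60% to 6.09% beside RpLP0. Exons of RpL7-like and RpLP0-like overlap those of CG34164 and Jra.

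Other genes of the translation machinery were compared between fru+ and fru- cells in the same fit. The 2 further components of the small subunit, sta (0.24) and Rack1 (0.18), did not pass the test. Of the 73 mitochondrial ribosomal proteins, 62 were higher in fru+ cells with a median of 0.21, and 1 passed, where 5.29% of all tested genes did. That gene was mRpS9, higher by 0.66 on the log2 scale (standard error 0.16, limma adjusted p = 0.0414). The call was lost when any 1 of 7 libraries was left out and kept only without female fru+ replicate 1 (adjusted p = 0.0225). With median-of-ratios scaling 7 of the 73 passed, all higher, where 4.75% of all tested genes did, and with the session as a block 2 did, where 5.86% of all genes did.

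Of 9 elongation and release factors, the latter being eRF1 and eRF3, 5 were higher and none passed. The smallest p were those of eEF1beta (0.42, limma adjusted p = 0.0524; with the session as a block, 0.0402) and eEF1alpha1 (0.53, adjusted p = 0.0606), both of the complex that delivers aminoacyl-tRNA. With median-of-ratios scaling 3 of the 9 passed, where 4.75% of all tested genes did. Of 35 initiation factors, 18 were higher and none passed. Of 33 genes listed under ribosome assembly and the nucleolus, 7 were higher and none passed, with a median of -0.12 equal to that of all tested genes. With median-of-ratios scaling 16 were higher. The list also holds Rrp1, a DNA repair enzyme, and Nap1, a histone chaperone, so its counts are not of ribosome assembly alone. RIOK1, a kinase of small-subunit maturation, differed by -0.72 and Non1, a nucleolar GTPase, by -0.43.

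Of 24 genes of growth signalling and ribosomal protein gene regulation, 12 were higher, and 1 passed, where 5.29% of all tested genes did. That gene was M1BP, which binds a core promoter motif found at many ribosomal protein genes. It fell by 0.56 on the log2 scale in fru+ cells (standard error 0.14, limma adjusted p = 0.0443). The call was lost with median-of-ratios scaling (adjusted p = 0.0579), with rescaling to the genes outside the ribosomal proteins (0.0515) and without any 1 of the 8 libraries (0.0574 to 0.182). Dref, a promoter-binding factor of growth genes, differed by -0.45 without passing. Between males and females, none of the genes of these 6 lists passed.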

How the data were processed

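RNA-seq libraries of sorted fru+ and fru- cells of both sexes were analysed. The authors used Trim Galore on reads of 150 nt and HISAT2 for alignment to dm6. They discarded multiply mapped reads and duplicates, which can lower short abundant genes, and ran StringTie 2.1.1 on each library. The deposited TPM, a signal scaled to the library, was used for every comparison. The FPKM and the coverage (mean read depth per base) deposited by the authors served only for depth, since their ratio gives aligned bases.

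Rows of 1 gene were summed, assembled loci were left out, and genes with at least 1 TPM in at least 2 libraries were tested on log2(TPM + 1) by limma 3.58.1 (R 4.3.3), with 4 group means, a variance trend and Benjamini-Hochberg adjustment over all 10111 genes at 0.05. Tables were made with Python 3.11.15 and pandas 2.3.3, and the fit was tested on simulated data. Exons, lengths and small nucleolar RNAs came from Ensembl release 115. Some members that the rule covers, and their families, are counted but not reported here by name. The members and lists were chosen with earlier results of these data known. The text names the 3 members with the smallest p per comparison, the highest and lowest, the most and least variable, the families, textbook roles, and the 2 genes of smallest p per list; RpL32, RpS10a and genes named for overlap or correlation were chosen after their values were seen.

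Replicate numbers mark shared sort sessions. Across genes, the deviations of same-numbered libraries correlated at -0.038 to 0.25 over the 6 pairs of groups for all tested genes and at 0.15 to 0.54 for the 88 tested members. Alternatives were a pseudocount of 0.1, no filter, a mean above 10 TPM, 2 scalings, fits to single comparisons, the session block, no trend and leaving out each library. Their use on the other lists was added after the data were seen.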

Additional observations from a re-analysis of the deposited data

How the results depend on the processing

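The number of ribosomal protein genes past the threshold was 0 in each of the 7 comparisons and stayed 0 under every alternative except in fru+ against fru- cells, where it was 2 of 88 with median-of-ratios scaling (4.75% of all tested genes passed there) and ran from 0 to 3 when each library was left out in turn (1.1% to 5.09% of all genes). With the replicate number as a block the count was 0 in every comparison, and the block changed no call of a member; RpS21 had an adjusted p of 0.0724 and RpL41 of 0.0690. When each library was left out in turn, the median log2 fold change of the members ran from -0.16 to 0.40 for female fru+ against female fru- and from -0.41 to 0.17 for male against female fru- cells. The ratio of the summed TPM of males to females, 0.938, ran from 0.880 to 0.988. The cause was not tested. No member chosen by its p changed sign. Without counts, and with 2 libraries per group, differences near the members' median standard error were not detectable. That error was 0.15 in the comparisons over both sexes or both fru states, 0.22 in those within 1 sex or 1 fru state and 0.31 for the interaction. Even RpS21, at 0.69 between fru+ and fru- cells, did not pass.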
